A study of Mus musculus with 12 samples.

Results

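The clustered histone genes are the replication-dependent histone genes that lie side by side in the groups Hist1 on chromosome 13, Hist2 on chromosome 3, Hist3 on chromosome 11 and Hist4 on chromosome 6. Their members were taken by symbol (Hist1h, Hist2h, Hist3h or Hist4h), without pseudogenes, where 3 or more of the 12 libraries reached 0.1 FPKM. They were thus chosen by their levels, with the groups left aside. FPKM is the number of sequenced fragments on a gene, scaled to the length of its transcript in kilobases and to the number of mapped fragments. Of 65 coding genes with such a symbol, 46 were members, out of 18023 genes that passed the same filter. The members held 5 of 6 genes for the linker histone H1, 9 of 18 for H2A, 12 of 16 for H2B, 9 of 12 for H3 and 11 of 13 for H4. By location, 41 of 52 Hist1 genes, 3 of 10 Hist2 genes, both Hist3 genes and no Hist4 gene were members.

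RNA was sequenced from C2C12 cells, a mouse myoblast line that leaves the cell cycle and fuses into myotubes when it differentiates. WT cells, labelled wild type and titled PbIP after the PB-IP vector, were compared with PPARγ/+ cells, which carried the coding sequence of PPARγ in that PiggyBac vector and had been selected with puromycin. Each was collected on 0d and on 5d of differentiation, in 3 libraries per group (WT_0d, WT_5d, PPARγ/+_0d and PPARγ/+_5d). Nothing in the labels says that the 3 libraries of a group came from separate transfections, so the p-values measure the spread between these libraries.

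Most histone mRNA is made in S phase, when the cell needs histones to pack newly copied DNA. These transcripts have no introns and no poly(A) tail. They end shortly after a stem-loop, which is bound by the stem-loop binding protein (Slbp) and cut by a special processing machinery. Some of the clustered genes also give longer transcripts that run past the stem-loop and carry a poly(A) tail, and these are known from cells that no longer divide. The library kit named in the labels (TruSeq RNA v2) selects RNA with poly(A) tails. How much of each member's RNA carried a tail was not measured here, so a level is that of the RNA which passed this selection.

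The stem-loop itself was looked for in the transcripts of the reference annotation, as a perfect stem of 6 base pairs that begins with GG and a loop of 4 bases that begins with TTT. It was found in 42 of the 65 coding genes and in 32 of the 46 members, while 68 of 21901 coding genes with a transcript (0.310%) held such a form. A gene without it may have an annotated transcript that stops before it. The forms are shown because they split by histone, with the loop in capitals, the stem in lower case and U written as T:
most common form: ggctctTTTCagagcc
form of H4 genes: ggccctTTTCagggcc
loop ending in A: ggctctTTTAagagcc
H4 form with another loop: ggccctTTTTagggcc
H4 form with another stem: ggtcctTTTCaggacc
The first was found in 24 genes, none of them for H4, and the second in 7 genes, all for H4. The third was found in 6 genes, none for H4. The fourth was found in Hist1h4i and Hist2h4, the fifth in Hist1h4b and Hist1h4j, and 1 more form in Hist2h2ac. In 20 members the annotated transcript ran over 50 bases past the stem-loop, in 12 it ended within 50 bases, and in 14 no stem-loop was found. The poly(A) signal AATAAA, searched on the transcript's strand, lay in the last 40 bases of 9 members (19.6%) and of 64.1% of all coding genes.

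The letters CCAAT and ATTTGCAT near the start of transcription also divided the genes by histone. Of the 65 coding genes, 59 had a promoter in the RefSeq table of GRCm38.p6, from 250 bases before to 50 bases after the start. The motifs were searched separately, so matches of different motifs may overlap. CCAAT, searched on both strands, was in the promoters of all 6 H1, 17 H2A, 14 H2B and 10 H3 genes, in 3 of 12 H4 genes and in 41.1% of 27025 genes. The octamer ATTTGCAT, on both strands, was in 7 of 17 H2A and 6 of 14 H2B genes, in none of the H1, H3 and H4 genes, and in 1.97% of all genes. Promoters of H2A and H2B genes that lie head to head overlap, so the same site can count for both genes. The octamer of Hist1h2ae and Hist1h2bg is such a site, and matches of CCAAT can be counted in the same way. TATAAA, on both strands, was in 4 of 6 H1, 11 of 17 H2A, 8 of 14 H2B, 4 of 10 H3 and 8 of 12 H4 genes and in 15.7% of all genes. The 250 bases before the start are shown for the H1 gene with the highest level, for the H2A gene that starts next to Hist1h2bc, for an H3 gene that fell in both cell types and for the H4 gene with the highest level, with these motifs in capitals on either strand:
Hist1h1c (chr13:23738557-23738806, plus strand): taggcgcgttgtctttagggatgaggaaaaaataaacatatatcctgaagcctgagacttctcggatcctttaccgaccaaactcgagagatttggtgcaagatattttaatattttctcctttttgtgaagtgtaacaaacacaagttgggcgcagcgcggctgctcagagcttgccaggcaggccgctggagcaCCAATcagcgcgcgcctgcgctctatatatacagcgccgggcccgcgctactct
Hist1h2ac (chr13:23683960-23684209, minus strand): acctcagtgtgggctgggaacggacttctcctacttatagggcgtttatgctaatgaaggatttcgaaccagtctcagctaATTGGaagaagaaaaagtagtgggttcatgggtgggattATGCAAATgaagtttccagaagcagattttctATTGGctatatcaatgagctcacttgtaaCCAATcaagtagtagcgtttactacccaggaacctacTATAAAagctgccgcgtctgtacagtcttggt
Hist1h3g (chr13:23535168-23535417, plus strand): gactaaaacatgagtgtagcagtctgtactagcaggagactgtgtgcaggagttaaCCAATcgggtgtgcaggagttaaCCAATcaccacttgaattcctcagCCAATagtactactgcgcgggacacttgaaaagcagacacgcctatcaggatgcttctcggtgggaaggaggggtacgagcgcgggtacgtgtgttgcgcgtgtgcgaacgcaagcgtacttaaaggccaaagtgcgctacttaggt
Hist1h4i (chr13:22041363-22041612, minus strand): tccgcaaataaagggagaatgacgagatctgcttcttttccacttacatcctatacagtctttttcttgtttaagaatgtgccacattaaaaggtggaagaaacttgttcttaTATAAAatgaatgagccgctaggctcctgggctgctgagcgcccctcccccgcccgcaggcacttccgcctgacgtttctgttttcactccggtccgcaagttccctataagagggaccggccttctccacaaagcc
Hist1h1c and Hist1h3g hold CCAAT and no octamer. Hist1h2ac holds CCAAT in both orientations, TATAAA and the octamer in its reverse orientation. Hist1h4i holds TATAAA and no CCAAT. A match describes these letters only, and binding was not measured.

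The members took between 0.00928% and 0.0204% of the 15507708 to 21960607 fragments on genes per library. For a gene of 500 bases, 1 fragment corresponds to 0.0767 to 0.108 FPKM, so the filter of 0.1 FPKM amounts to 1 or 2 fragments for most members, whose median counted length was 476.5 bases. In 34 of the 46 members no library held more than 20 fragments. The values of such a gene move in steps of whole fragments, and the 95% intervals on pooled fragments below (exact, Clopper-Pearson) cover counting error only. Just inside the filter, by the FPKM of the library ranked 3 from the top, lay the H2A genes Hist1h2ah (0.101), Hist1h2af (0.103) and Hist1h2ag (0.106). Just outside it lay Hist4h4 (0.0905), Hist1h3a (0.0903) and Hist2h2ac (0.0755). Among the 19 coding genes below the filter, 11 were at 0 in all libraries, and in 10 of these more than 50% of the 100-base windows of the transcript also occurred in another gene. Reads on such windows match several genes, and HTSeq leaves out reads with several matches by default, so a value of 0 does not show that the gene was silent. Over 10% of the windows were shared in 37 members and over 50% in 16, and their levels are uncertain in the same way. Pparg, the gene overexpressed, lay at 6.53 ± 1.27 FPKM in WT_0d, 3.75 ± 0.76 in WT_5d, 39.6 ± 10.1 in PPARγ/+_0d and 58.9 ± 29.3 in PPARγ/+_5d (SD, n = 3).

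Hist1h1c, which encodes a linker histone of the H1 family, and Hist1h2bc, which encodes a core histone H2B, stood far above the rest and together held 81.5% of the summed FPKM of all members. Hist1h1c (ENSMUSG00000036181, chr13:23738808-23740367 of GRCm38, plus strand) is annotated 1560 bases long, over 50 bases past its stem-loop. It had 38.2, 29.9 and 33.6 FPKM in WT_0d and 55.8, 55.4 and 67.1 in WT_5d. In PPARγ/+_0d it had 41.4, 63.5 and 63.0 FPKM, and in PPARγ/+_5d 58.9, 68.4 and 65.2. All libraries of the other groups lay above all of WT_0d, and replicate 1 of PPARγ/+_0d lay nearest to it. Hist1h2bc (chr13:23684199-23692908, plus strand) had 42.9, 21.7 and 22.0 FPKM in WT_0d and 54.2, 54.3 and 57.0 in WT_5d. In PPARγ/+_0d it had 36.9, 69.7 and 57.9 FPKM, and in PPARγ/+_5d 56.1, 62.1 and 62.5. The values of WT_0d lay below those of both 5d groups, and those of PPARγ/+_0d overlapped with all other groups. For Hist1h2bc the smallest counted length that gives whole fragments is 736 bases, shorter than the 1156 bases of the annotation used here.

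The next 10 members by mean FPKM lay far lower, at 0.540 to 4.83 FPKM over the 12 libraries. Hist1h2bg, another H2B gene (chr13:23571396-23572013), came first among them. It lay at 6.92, 2.91 and 5.98 FPKM in WT_0d and at 4.77, 1.30 and 6.81 in WT_5d. PPARγ/+_0d lay at 4.04, 7.32 and 8.74 FPKM, above 2.43, 3.02 and 3.72 in PPARγ/+_5d, while the WT groups overlapped. Hist1h4i, an H4 gene (chr13:22040636-22041362), had a mean of 3.96 FPKM and varied little. Its libraries had 4.75, 3.05 and 3.51 FPKM in WT_0d, 3.29, 4.06 and 3.44 in WT_5d, 5.24, 4.22 and 4.98 in PPARγ/+_0d and 2.92, 3.13 and 4.96 in PPARγ/+_5d, and its days overlapped in both cell types. Hist1h4h, also for H4, had 1.42, 1.01 and 0.548 FPKM in WT_0d, 0.332, 0.657 and 0.650 in WT_5d, 0.347, 1.95 and 1.16 in PPARγ/+_0d and 0.714, 0.492 and 1.71 in PPARγ/+_5d. Its groups overlapped throughout. The H4 gene Hist1h4k had 1.65, 0.381 and 0.969 FPKM in WT_0d, 0.503, 0.332 and 1.13 in WT_5d, 0.919, 0.492 and 1.03 in PPARγ/+_0d and 0.464, 0.447 and 0.172 in PPARγ/+_5d, and 64.3% of its windows were shared. Its days overlapped in WT cells and were narrowly apart in PPARγ/+ cells. The H1 gene Hist1h1d had 0.624, 0.693 and 0.406 FPKM in WT_0d, 0.792, 0.418 and 0.236 in WT_5d, 0.716, 0.670 and 1.05 in PPARγ/+_0d and 0.519, 0.375 and 0.362 in PPARγ/+_5d. The days of Hist1h1d were apart in PPARγ/+ cells and overlapped in WT cells. The others of the 12, Hist2h3c2, Hist2h4, Hist1h3d, Hist2h2be and Hist1h1b, are described with their changes below.

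**Figure D1:**
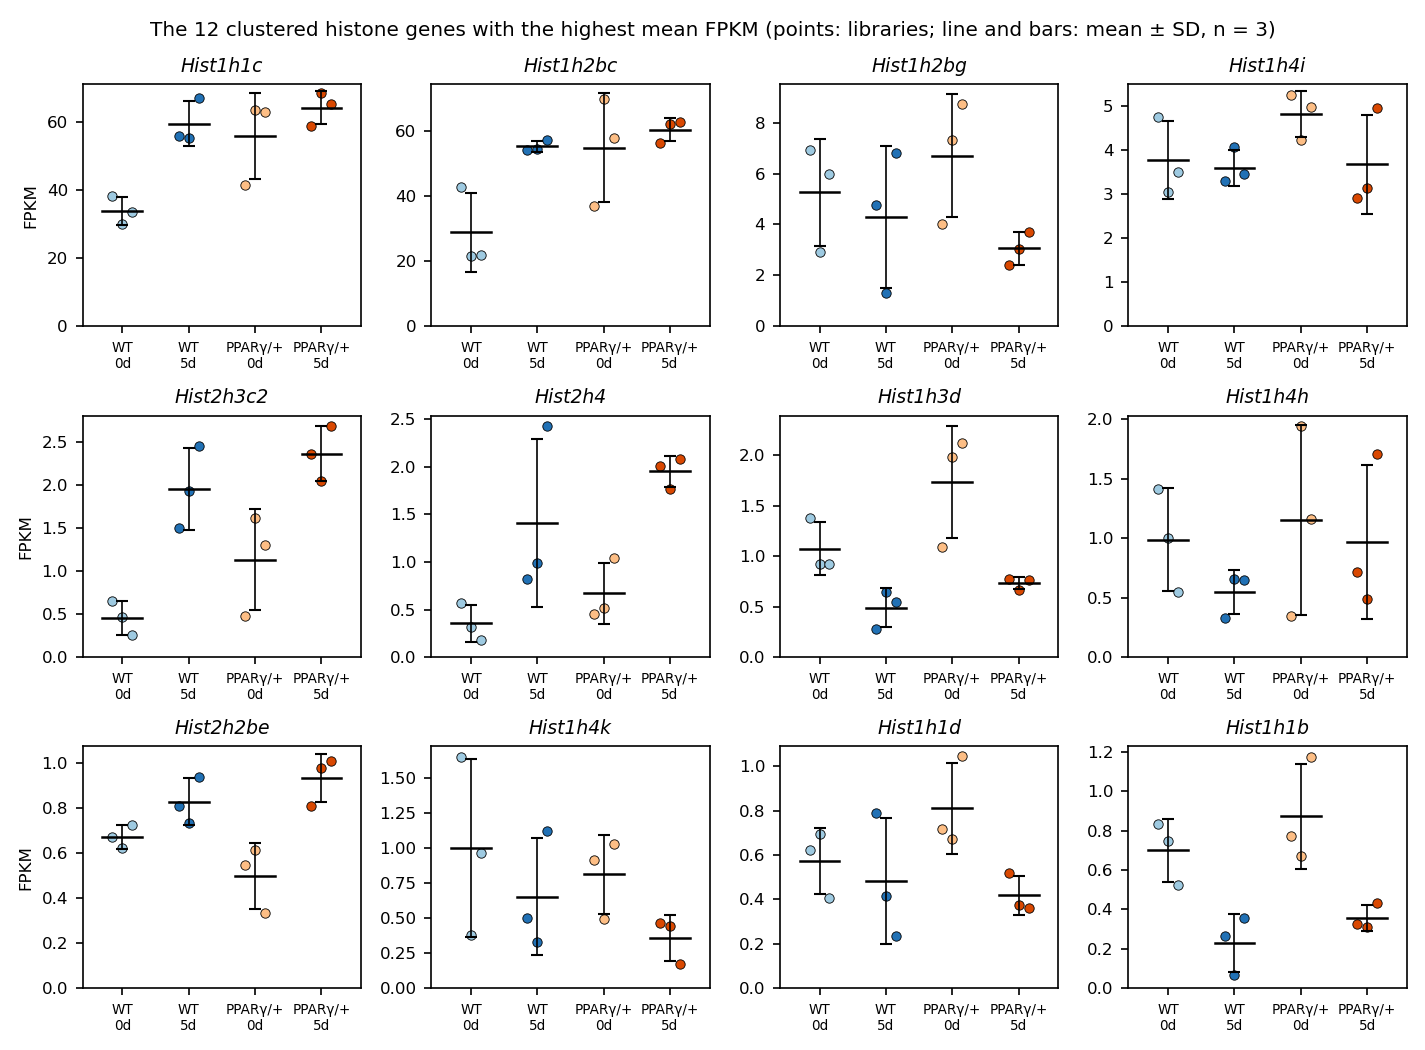
FPKM (y axis, linear, from 0) of the 12 members with the highest mean in the 4 groups (x axis). Points are libraries and lines with bars are the mean ± SD (n = 3). Hist1h1c and Hist1h2bc are lowest in WT_0d, while Hist1h3d and Hist1h1b are lower on 5d than on 0d in both cell types.

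Along the Hist1 cluster high and low genes were neighbours. The genes for H2A and H2B often lie head to head with a short gap, and 12 such pairs with 175 to 305 bases between their starts were found among the coding genes. In 10 pairs the H2B gene had the higher mean FPKM, in 1 the H2A gene, and in 1 both were at 0. The 10 include Hist1h2ba with 1 fragment over all libraries against 0 in Hist1h2aa, and Hist1h2bq with 11 against 0 in Hist1h2ao. Across a gap of 250 bases, most of which is in the sequence shown for Hist1h2ac, that gene had a mean of 0.0890 FPKM (11 fragments over all libraries) and Hist1h2bc 49.8 FPKM (9756 fragments). Hist1h2ae had 0.387 FPKM and its partner Hist1h2bg 4.83 FPKM, and Hist2h2ac had 0.0284 FPKM and its partner Hist2h2be 0.732 FPKM. The exception was Hist1h2ad with 0.369 FPKM beside Hist1h2bf with 0.254 FPKM. Genes of these pairs differ in how many of their windows are shared with other genes, from 0% in Hist2h2be to 94.8% in Hist1h2bq. Each H2A gene of the 12 pairs also overlaps exons of another annotated gene, over 129 bases in Hist1h2aa to 246 in Hist1h2ac. Their H2B partners overlap none. The part of either in the difference between partners was not tested.

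**Figure D2:**
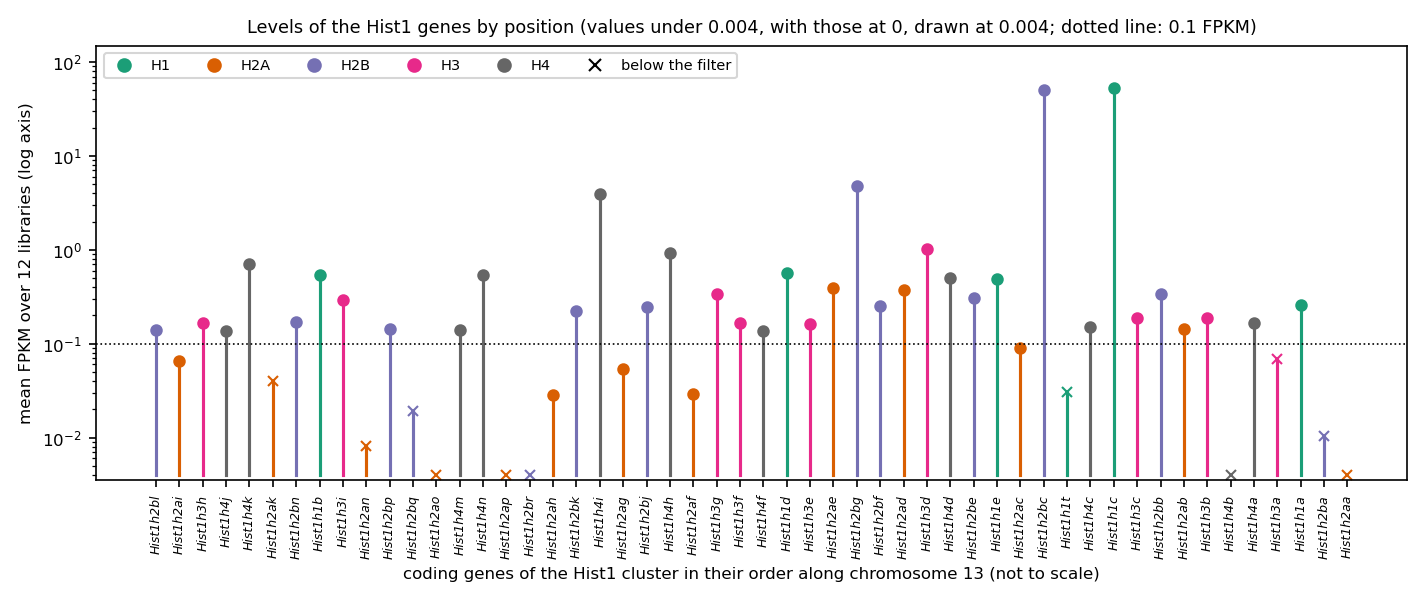
Mean FPKM over the 12 libraries (y axis, log) of the 52 coding genes of the Hist1 cluster in their order along chromosome 13 (x axis, not to scale), coloured by histone. Crosses are genes below the filter, the dotted line is 0.1 FPKM, and 5 genes under 0.004 FPKM are drawn at 0.004. Hist1h2bc and Hist1h1c exceed all other genes of the cluster.

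The first comparison asked which members changed over the 5 days of differentiation in WT cells. Most members were lower on 5d, while Hist1h2bc and the Hist2 genes Hist2h3c2 and Hist2h4 were higher. The 4 members that reached 0.1 FPKM only on 0d (Hist1h2ag, Hist1h2ah, Hist1h2ai and Hist1h2bp) were not tested, since the filter admits them only for being high on that day. Counts are over the other 42. Within a single cell type, some tested members also reached 0.1 FPKM on 1 day only. In WT cells these include Hist1h3g, Hist1h3b and Hist1h2bn on 0d and Hist1h4m on 5d, and in PPARγ/+ cells Hist1h4a on 0d. The filter may favour the calls of such members. Each gene was tested with limma on log2(FPKM + 0.1) over all 18023 genes and called where the fold change reached 2 with an unadjusted p-value up to 0.05, the thresholds of the study. In WT cells 16 of the 42 members were called lower (38.1%), against 7.53% of all genes tested, and 4 were called higher (9.52%), against 8.94% of all genes, which is close to the background. The median log2 fold change of the 42 members was -0.84 and that of all genes -0.08. Scaling the libraries by their median ratio moved the median of all genes to 0.0226 in WT cells and, from -0.0953, to 0.0205 in PPARγ/+ cells. Under this scaling Hist1h3d lost its call in WT cells, and Hist1h1b, Hist1h2bg, Hist1h3d and Hist1h4k lost theirs in PPARγ/+ cells. These counts describe the list and were not tested as a set, because members with few fragments pass the filter more easily when they are high on either day. By histone, 7 of 9 H3 genes, 4 of 11 H2B genes, 2 of 5 H1 genes, 2 of 6 H2A genes and 1 of 11 H4 genes were called lower. Of these H3 genes, Hist1h3h, Hist1h3i and Hist1h3b shared 92.0%, 68.6% and 56.6% of their windows with other genes. The other H3 genes called lower (Hist1h3c, Hist1h3d, Hist1h3f and Hist1h3g) shared 20.4% to 37.1%. With an adjusted p-value up to 0.05 in place of the unadjusted one, 13 were called lower and 4 higher. The shares of all genes above are for the unadjusted p-value and do not apply to these counts. The libraries of the days did not overlap in 17 members that were lower (40.5%, against 30.9% of all genes) and in 8 that were higher (19.0%, against 20.2%).

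In PPARγ/+ cells 13 of the 42 members were called lower on 5d than on 0d, where 6.06% of all genes were, and 2 were called higher (4.76%), against 9.11% of all genes. The median log2 fold change was -0.55 for the members and -0.10 for all genes. By histone, 4 of 11 H4 genes, 3 of 9 H3 genes, 3 of 11 H2B genes, 2 of 5 H1 genes and 1 of 6 H2A genes were called lower. With the adjusted p-value 8 were called lower and 1 higher, and here too the shares of all genes above do not apply. The days did not overlap in 13 members that were lower, below the share of 34.4% among all genes, and in 4 that were higher (9.52%, against 23.8%). Without replicate 2 of PPARγ/+_0d 7 were called lower, and without replicate 3 of that group 8. Fits that left out 1 PPARγ/+ library called 2535 to 2829 of the 18023 genes, both directions together. Of the 16 called lower in WT cells 43.8% were also called lower in PPARγ/+ cells, which is 7 members and 53.8% of the 13. The counts changed with the value added to the FPKM. With 1 added in place of 0.1, 1 member was called in WT cells (Hist2h3c2) and none in PPARγ/+ cells. The calls lost included those of Hist1h2bc in WT cells and Hist1h2bg in PPARγ/+ cells, and the cause was not tested.

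**Figure D3:**
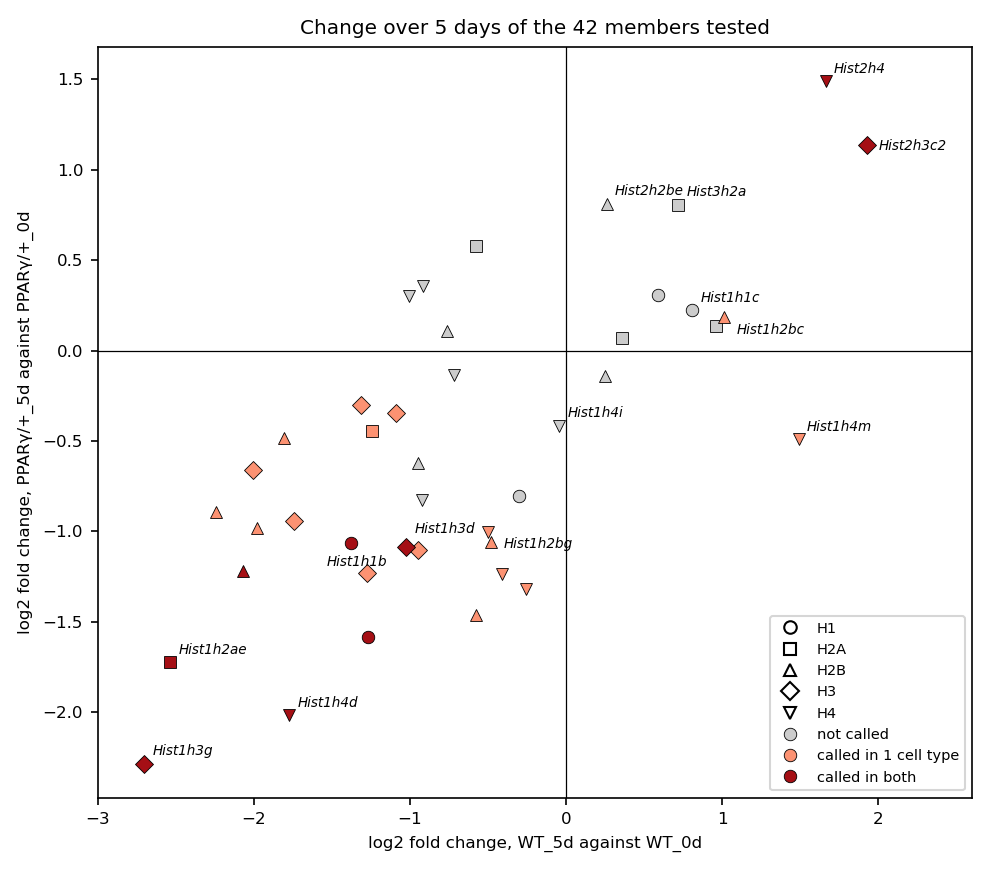
Log2 fold change from 0d to 5d in WT cells (x axis) and in PPARγ/+ cells (y axis) for the 42 members tested, with 1 point per gene, its shape showing the histone and its colour the number of cell types in which it was called. Hist2h3c2 and Hist2h4 lie at the upper right, and Hist1h3g, Hist1h2ae and Hist1h4d at the lower left.

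The 7 members called lower in both cell types were Hist1h1a and Hist1h1b for H1, Hist1h2ae for H2A, Hist1h2bb for H2B, Hist1h3d and Hist1h3g for H3 and Hist1h4d for H4, so that each histone was represented. Hist1h1a, Hist1h2ae, Hist1h2bb and Hist1h3g lie outside the rule for named genes and were named after their values were seen. Hist1h3d (chr13:23575763-23577011) had 1.38, 0.920 and 0.926 FPKM in WT_0d and 0.280, 0.648 and 0.549 in WT_5d. Its values were 1.10, 1.99 and 2.13 FPKM in PPARγ/+_0d and in PPARγ/+_5d 0.775, 0.664 and 0.769. All 0d libraries lay above all 5d libraries of their cell type. It fell by 1.02 ± 0.32 (SE) on the log2 scale in WT cells (limma, adjusted p = 0.0452) and by 1.09 ± 0.25 in PPARγ/+ cells (adjusted p = 0.0117), from 70 to 25 pooled fragments in the latter. Its calls lie at the 2-fold threshold. It fell by 0.85 without replicate 1 of WT_0d and 0.73 without replicate 1 of WT_5d, and in PPARγ/+ cells it fell by 0.97 and dropped by 0.92 without replicates 2 and 3 of PPARγ/+_0d.

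Hist1h1b (chr13:21779883-21780625), for a linker histone, had 0.833, 0.747 and 0.523 FPKM in WT_0d and 0.264, 0.0697 and 0.355 in WT_5d. In PPARγ/+_0d it had 0.772, 0.671 and 1.17 FPKM and in PPARγ/+_5d 0.325, 0.313 and 0.435, so the days did not overlap in either cell type. It fell by 1.38 ± 0.41 (SE) on the log2 scale in WT cells (limma, adjusted p = 0.0397) and by 1.06 ± 0.24 in PPARγ/+ cells (adjusted p = 0.0104). None of its 100-base windows occurred in another gene. The call was lost without replicate 1 of WT_0d (-1.26) or replicate 2 of WT_5d (-0.96), and without replicate 3 of PPARγ/+_0d (-0.85) or replicate 2 of PPARγ/+_5d (-0.99). Hist1h1a, the other H1 gene of this group, fell from 19 to 5 pooled fragments in WT cells and from 20 to 3 in PPARγ/+ cells, with adjusted p-values (limma) of 0.0168 and 0.0279.

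Hist1h3g, whose promoter with 3 copies of CCAAT is shown above, came near to 0 on 5d. It held 4, 11 and 7 fragments in WT_0d and 1, 0 and 0 in WT_5d, and 6, 7 and 4 in PPARγ/+_0d and 0, 0 and 1 in PPARγ/+_5d. No library of 5d reached any library of 0d. Scaled by depth, the pooled fragments of 0d were 21.9 times those of 5d in WT cells (interval 3.54 to 905) and 14.3 times in PPARγ/+ cells (interval 2.24 to 598). The fitted log2 changes, -2.70 ± 0.38 (SE; limma, adjusted p = 0.00278) and -2.28 ± 0.37 (adjusted p = 0.00255), depend on the value added to the FPKM. In WT cells Hist1h3g reached the filter level on 0d only, so the filter may favour its call there. Windows shared with Hist1h3h, Hist1h3a and Hist1h3i made up 37.1% of its transcript.

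Hist1h2ae held 7, 11 and 11 fragments in WT_0d and 1, 0 and 2 in WT_5d, a ratio of 9.63 (interval 2.99 to 49.4). In PPARγ/+ cells it held 8, 7 and 1 fragments on 0d and 2, 0 and 0 on 5d, a ratio of 6.73 (interval 1.58 to 60.3), and here the days overlapped. Its exons overlap Gm44394. The call in PPARγ/+ cells was lost without replicate 1 (-1.34) or 2 (-1.47) of PPARγ/+_0d, or replicate 2 or 3 of PPARγ/+_5d (-1.45 for each). Its adjusted p-values (limma) were 0.00448 in WT cells and 0.0763 in PPARγ/+ cells. Hist1h4d held 3, 7 and 5 fragments in WT_0d and 1, 0 and 2 in WT_5d, and 8, 18 and 7 in PPARγ/+_0d and 1, 3 and 1 in PPARγ/+_5d. The days were apart in both cell types, with adjusted p-values (limma) of 0.0258 and 0.00567. Hist1h2bb fell from 17 to 2 pooled fragments in WT cells, where replicate 1 of WT_0d held 10 of the 17, and from 17 to 5 in PPARγ/+ cells, with adjusted p-values (limma) of 0.0411 and 0.0158. Its call in WT cells was lost without replicate 1 or 2 of WT_5d (log2 change -1.81 for each).

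**Figure D4:**
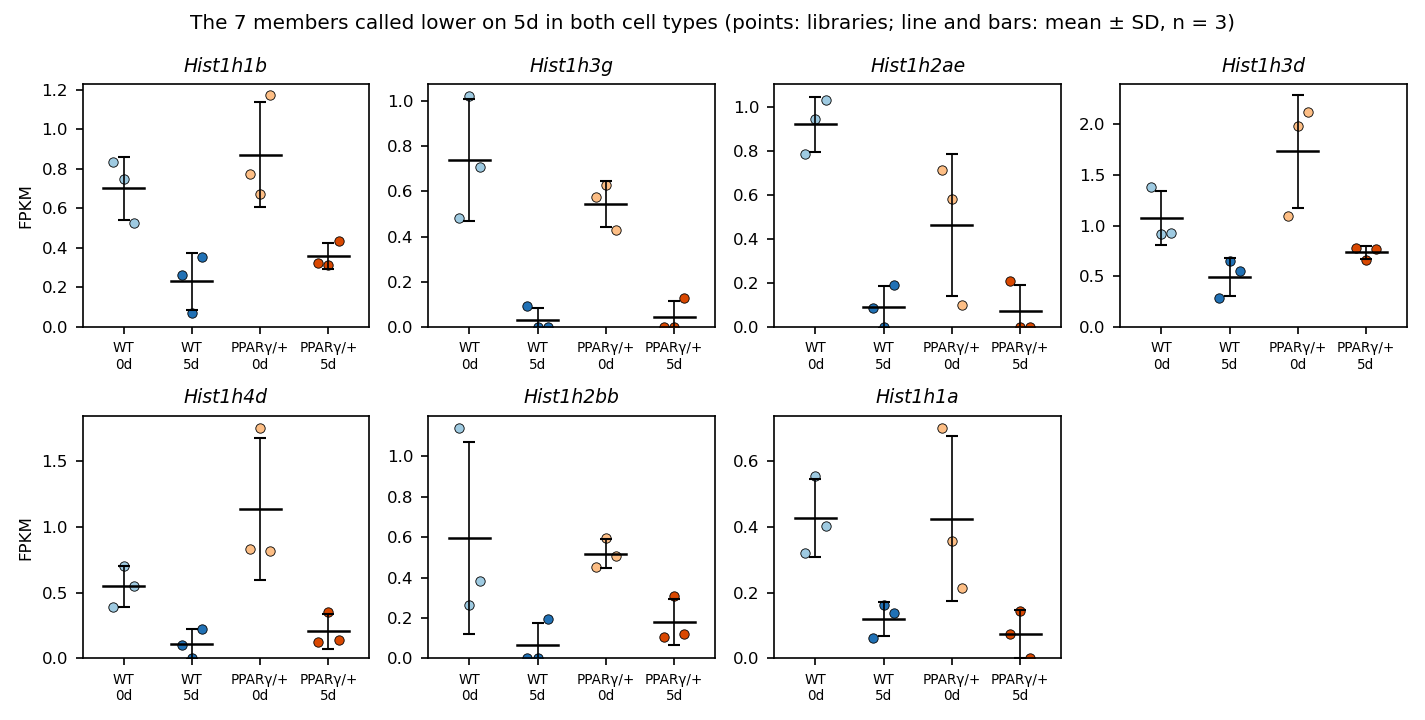
FPKM (y axis, linear, from 0) of the 7 members called lower on 5d in both cell types, in the 4 groups (x axis). Points are libraries and lines with bars are the mean ± SD (n = 3). Hist1h3g is at or near 0 in all 5d libraries, and the days overlap only for Hist1h2ae in PPARγ/+ cells.

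Some calls were made in 1 cell type, and whether the change differed between the cell types is answered by the interaction below. Hist1h2bg was called lower in PPARγ/+ cells, by 1.06 ± 0.30 (SE) on the log2 scale (limma, adjusted p = 0.0244), and its pooled fragments were 2.19 times as many on 0d (interval 1.71 to 2.83). In WT cells its log2 change was -0.48 ± 0.63 (adjusted p = 0.591), with replicate 2 of WT_5d at 12 fragments and the others at 58 and 74. Without that replicate the change in WT cells was 0.20, and the call in PPARγ/+ cells was lost without replicate 2 (-0.96) or 3 (-0.83) of PPARγ/+_0d or replicate 1 of PPARγ/+_5d (-0.91). Hist1h4k (log2 change -1.01 ± 0.38, limma adjusted p = 0.0666) and Hist1h4n (-1.32 ± 0.50, adjusted p = 0.0694) were called lower in PPARγ/+ cells at the unadjusted threshold. Both are H4 genes with mostly shared windows, 64.3% and 80.7%. Hist1h4n held 4, 12 and 15 fragments in PPARγ/+_0d and 2, 2 and 4 in PPARγ/+_5d, which overlap at 4. The call of Hist1h4n was lost without replicate 2 (-1.19) or 3 (-0.93) of PPARγ/+_0d or replicate 1 (-1.18) or 2 (-1.16) of PPARγ/+_5d. The call of Hist1h4k was lost without replicate 1 (-0.90) or 3 (-0.83) of PPARγ/+_0d or replicate 3 of PPARγ/+_5d (-0.66). Besides these, 9 members were called lower in WT cells alone, among them 5 H3 genes, and 3 more in PPARγ/+ cells alone, all with at most 13 fragments in any library. One of those called in WT cells alone, Hist1h2bn, named after its values were seen, held 2, 4 and 4 fragments in WT_0d and none in WT_5d. It was at least 3.32-fold lower against a floor of 3 pooled fragments, and 52.1% of its windows were shared.

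The 3 Hist2 members went the other way, and 2 of them were called. All 3 are among the 6 members with a counted length over 1000 bases, described below. For them cluster and counted length cannot be told apart. Hist2h3c2, which encodes H3 (chr3:96238108-96239127, minus strand), had 0.657, 0.466 and 0.254 FPKM in WT_0d and 1.501, 1.93 and 2.45 in WT_5d. The PPARγ/+_0d libraries had 0.482, 1.62 and 1.30 FPKM and in PPARγ/+_5d 2.36, 2.05 and 2.69, so that 5d lay above 0d in both cell types. It rose by a log2 fold change of 1.92 ± 0.33 (SE) in WT cells (limma, adjusted p = 0.00571) and of 1.13 ± 0.39 in PPARγ/+ cells (adjusted p = 0.0520). Windows shared with Hist2h3c1 and the annotated genes Gm20634 and Gm20628 made up 61.6% of its transcript. In PPARγ/+_0d replicate 1 stood below the others, and the call in PPARγ/+ cells was lost without it (0.66) and without replicate 1 (1.13) or 3 (1.04) of PPARγ/+_5d.

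Hist2h4, which encodes H4 (chr3:96261682-96263311, minus strand), shared none of its windows. It had 0.569, 0.316 and 0.185 FPKM in WT_0d and 0.819, 0.986 and 2.42 in WT_5d, where replicate 3 stood above the others. The libraries of PPARγ/+_0d had 0.453, 0.518 and 1.04 FPKM and in PPARγ/+_5d 2.01, 1.77 and 2.08. It rose by a log2 fold change of 1.66 ± 0.48 (SE) in WT cells (limma, adjusted p = 0.0369) and of 1.49 ± 0.28 in PPARγ/+ cells (adjusted p = 0.00488). It was called in both cell types whichever library was left out. Hist2h2be, an H2B gene whose windows were also unshared, had 0.669, 0.620 and 0.725 FPKM in WT_0d and 0.809, 0.732 and 0.938 in WT_5d, 0.547, 0.615 and 0.332 in PPARγ/+_0d and 0.810, 0.976 and 1.01 in PPARγ/+_5d. The days were apart in both cell types, but its log2 changes of 0.26 ± 0.18 (limma, adjusted p = 0.302) and 0.81 ± 0.23 (adjusted p = 0.0254) were below 2-fold and it was not called.

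Hist1h2bc was called higher in WT cells, with a log2 fold change of 1.01 ± 0.26 (SE; limma, adjusted p = 0.0258). The call is at the threshold of 2-fold, and it was lost when replicate 2 or 3 of WT_0d or replicate 3 of WT_5d was left out, with values from 0.84 to 1.33 over the 6 libraries. In PPARγ/+ cells its log2 change was 0.18 ± 0.22 (adjusted p = 0.525), and without replicate 1 of PPARγ/+_0d it was -0.08. Hist1h1c had a log2 fold change of 0.81 ± 0.12 in WT cells (limma, adjusted p = 0.00361), or 1.75-fold, which is under the 2-fold threshold, and of 0.22 ± 0.17 in PPARγ/+ cells (adjusted p = 0.329). The fourth member called higher in WT cells was Hist1h4m, with no fragment in WT_0d and 2, 2 and 1 in WT_5d, at least 1.67-fold higher against the floor, and with 88.1% of its windows shared. In PPARγ/+ cells it held 0, 3 and 4 fragments on 0d and 0, 2 and 1 on 5d.

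The sums over members depended on Hist1h1c and Hist1h2bc. The 46 members had 89.0 ± 20.4 FPKM in WT_0d, 133.6 ± 12.03 in WT_5d, 139.7 ± 34.1 in PPARγ/+_0d and 144.0 ± 10.1 in PPARγ/+_5d (SD, n = 3). All 41 Hist1 members together had 87.1 ± 20.1 FPKM in WT_0d, 128.8 ± 10.6 in WT_5d, 136.9 ± 33.3 in PPARγ/+_0d and 137.9 ± 9.95 in PPARγ/+_5d. The 39 Hist1 members other than Hist1h1c and Hist1h2bc had 28.8, 20.2 and 24.0 FPKM in WT_0d and 14.6, 11.3 and 16.8 in WT_5d, and 20.7, 27.7 and 30.0 in PPARγ/+_0d and 11.4, 12.1 and 16.8 in PPARγ/+_5d. For these 39 the days did not overlap in either cell type, with 5d lower. The 3 Hist2 members had 1.90, 1.40 and 1.16 FPKM in WT_0d and 3.13, 3.65 and 5.82 in WT_5d, and 1.48, 2.75 and 2.67 in PPARγ/+_0d and 5.19, 4.797 and 5.78 in PPARγ/+_5d, again without overlap and with 5d higher. The rule that chose the members used these levels, so the sums are a description.

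**Figure D5:**
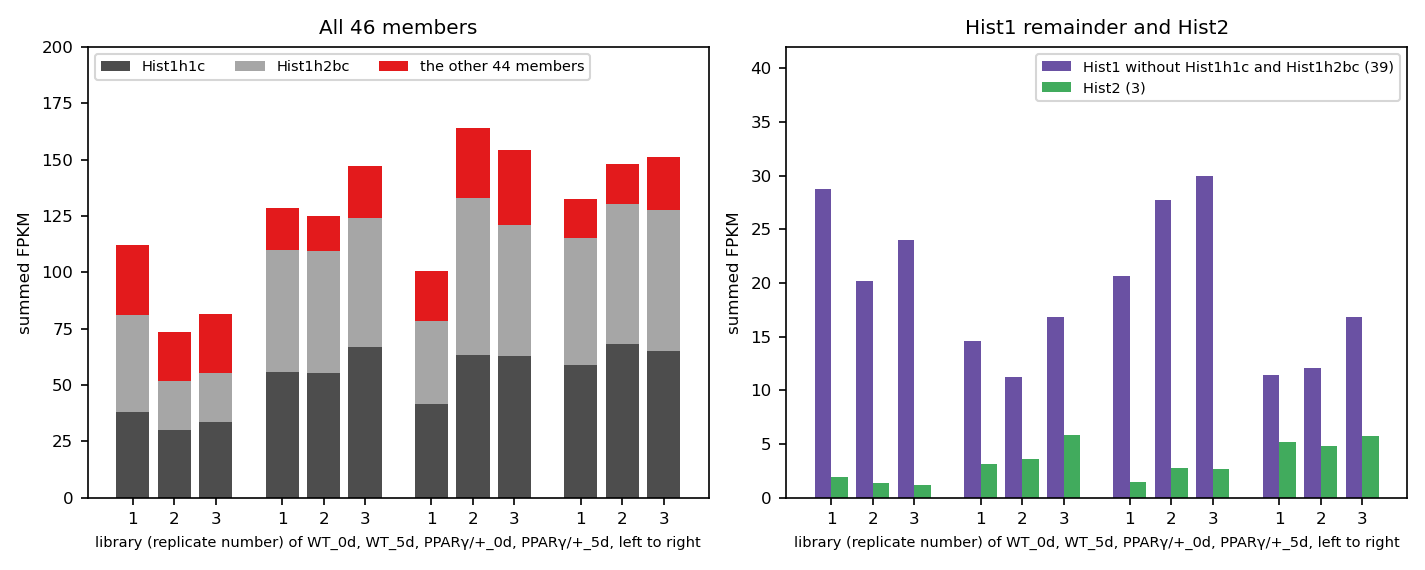
Summed FPKM (y axis, linear, from 0) in each library (x axis), with bars stacked on the left for Hist1h1c, Hist1h2bc and the other 44 members, and side by side on the right for the 39 remaining Hist1 members and the 3 Hist2 members. On the right the Hist1 bars are lower and the Hist2 bars higher on 5d in both cell types.

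The members also differed by the length over which they were counted, a split chosen after the values were seen and given with no test. Of 6 members with a counted length over 1000 bases (Hist1h1c, Hist1h2be, Hist2h2be, Hist2h3c2, Hist2h4 and Hist3h2a), all had a log2 change above 0 in WT cells and 5 in PPARγ/+ cells, with medians of 0.76 and 0.81. Hist1h2be overlaps the exons of Hist1h1e. Of the 36 tested members of up to 1000 bases, 31 had a change below 0 in WT cells and 28 in PPARγ/+ cells, with medians of -0.95 and -0.82. In 16 members the counted length, there the smallest that gives whole fragments, was shorter than in the annotation used here. If that length is right, part of the annotated sequence of these genes was not counted. Which end this part lies at was not determined. For Hist1h1d the counted length was 744 bases in place of 7425. Of the 20 members annotated over 50 bases past the stem-loop, 6 were called lower and 2 higher in WT cells and 5 lower and 2 higher in PPARγ/+ cells. Of the 10 tested members that end within 50 bases, 4 were called lower and 1 higher in WT cells and 3 lower and none higher in PPARγ/+ cells. Of the 12 tested members with no stem-loop found, 6 were called lower and 1 higher in WT cells and 5 lower and none higher in PPARγ/+ cells. Over all genes, 7.53% were called lower and 8.94% higher in WT cells, and 6.06% lower and 9.11% higher in PPARγ/+ cells. Hist3h2a, an H2A gene named after its values were seen, had 0.241 ± 0.0521 FPKM in WT_0d, 0.465 ± 0.124 in WT_5d, 0.384 ± 0.0903 in PPARγ/+_0d and 0.738 ± 0.0575 in PPARγ/+_5d (SD, n = 3). It overlaps the exons of Trim17 and Gm44313 over 846 bases, and without strand the reads of these genes cannot be told apart.

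The interaction over all 12 libraries asked whether a member changed differently over the 5 days in WT and in PPARγ/+ cells. None of the 42 members was called with an adjusted p-value up to 0.05 (limma), where 0.583% of all genes were called with a positive and 0.178% with a negative coefficient. The lowest adjusted p-value among members was 0.250, and 4 had an unadjusted p-value under 0.05. The added test with limma voom on recovered fragments also called none. Weighting the libraries by their spread called 5 members, in a fit that called 2070 of the 18023 genes. For Hist1h1c the coefficient was -0.59 ± 0.22 (SE; adjusted p = 0.317) and for Hist1h2bc -0.83 ± 0.37 (adjusted p = 0.405). A p-value above the threshold does not show that the changes of the cell types were alike.

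The last comparison set PPARγ/+ against WT cells, first on 0d and then on 5d, and called a gene where the fold change reached 2 and the adjusted p-value was up to 0.05. These comparisons use the same libraries as those above. On 0d, 1 of the 42 members was called higher (2.38%) and none lower, against 0.571% and 1.39% of all genes. Without overlap were 5 members that were higher (11.9%, against 13.7% of all genes) and 7 that were lower (16.7%, against 13.1%). The member called was Hist1h2ac, with no fragment in the 3 libraries of WT_0d and 1, 1 and 2 in PPARγ/+_0d, at least 1.25-fold higher against the floor of 3 pooled fragments. Its exons overlap the genes Gm24991 and Gm44350. Its adjusted p-value (limma) was 0.0458, and the call was lost in 9 of the 12 fits that left out 1 library. Hist1h1c was 1.63-fold higher in PPARγ/+_0d, with a log2 difference of 0.70 ± 0.16 (SE; limma, adjusted p = 0.0279) and no overlap of the libraries, short of the 2-fold threshold. Hist1h2bc differed by 0.95 ± 0.26 on the log2 scale (adjusted p = 0.0579) and its libraries overlapped.

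On 5d no member was called (limma), against 0.571% of all genes called higher and 0.533% called lower, while 5 members had an unadjusted p-value under 0.05 and the lowest adjusted p-value was 0.212. Without overlap were 2 members that were higher (4.76%, against 10.2% of all genes) and 2 that were lower (4.76%, against 8.31%). The voom test called none and the weighted fit 8. The latter count is given without the share of all genes called in that fit, so it cannot be set against the background. Hist1h1c and Hist1h2bc differed by log2 differences of 0.11 ± 0.16 (SE; adjusted p = 0.781) and 0.13 ± 0.26 (adjusted p = 0.866). Hist2h4 differed by 0.59 ± 0.42 (adjusted p = 0.547) and Hist2h3c2 by 0.28 ± 0.39 (adjusted p = 0.781).

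Histone genes outside the clusters, most of which encode variants, were taken from a list of 11. In both cell types 4 of them were called lower from 0d to 5d and none higher. Over all genes, 7.53% were called lower in WT cells and 6.06% in PPARγ/+ cells. H2afz, for the variant H2A.Z, fell from 146.9 ± 17.9 to 38.0 ± 4.27 FPKM in WT cells and from 134.8 ± 33.8 to 30.8 ± 0.821 in PPARγ/+ cells (SD, n = 3). H2afx, for the variant marked at DNA breaks, fell with log2 changes of -2.27 and -1.93, and Cenpa, for the H3 variant of centromeres, with log2 changes of -3.24 and -3.49. H3f3a and H3f3b, which both encode H3.3, were not called. H3f3a had log2 changes of 0.13 and 0.14 and H3f3b of -0.79 and -0.79 in WT and PPARγ/+ cells. H1f0, for a linker histone known from cells at rest, had log2 changes of -0.60 and -0.46 and was not called.

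Of 14 genes for the synthesis and 3′ processing of histone mRNA, 3 were called lower in WT cells and 2 in PPARγ/+ cells. Slbp was among them in both, at 6.46 ± 0.551 FPKM in WT_0d, 2.17 ± 0.222 in WT_5d, 5.49 ± 0.759 in PPARγ/+_0d and 2.43 ± 0.103 in PPARγ/+_5d (SD, n = 3). Npat, a coactivator of histone genes, had log2 changes of -0.69 and -0.66 and was not called. Of 15 histone chaperones, which hand histones to DNA, 7 were called lower in WT cells and 5 in PPARγ/+ cells, with Asf1b at log2 changes of -3.24 and -3.76 and Chaf1a at -2.95 and -2.40. All 22 S phase genes were called lower in both, and Pcna, the sliding clamp of DNA polymerase, had log2 changes of -1.87 and -1.26 and Mcm2, a subunit of the replicative helicase, of -2.35 and -1.94. None of these 4 lists held a gene called higher over the 5 days. Over all genes, 7.53% were called lower and 8.94% higher in WT cells, and 6.06% lower and 9.11% higher in PPARγ/+ cells. The lists were chosen with earlier results of these data known. The summed FPKM of the S phase genes ranged from 524.9 to 707.2 in WT_0d, 122.2 to 140.6 in WT_5d, 398.7 to 623.4 in PPARγ/+_0d and 133.4 to 143.2 in PPARγ/+_5d. The part of these genes in the members' changes was not tested, and in bulk RNA fewer cells in S phase and less RNA per cell cannot be told apart.

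The labelled cell type was checked on markers. Over all genes, 8.94% were called higher and 7.53% lower from 0d to 5d in WT cells, and 9.11% higher in PPARγ/+ cells. Of 8 markers of C2C12 muscle cells, 6 were called higher and 1 lower (Myf5) from 0d to 5d in WT cells, and 7 were called higher in PPARγ/+ cells. Their summed FPKM ranged from 134.8 to 306.9 in WT_0d, 961.9 to 4236 in WT_5d, 61.9 to 97.6 in PPARγ/+_0d and 1038 to 1223 in PPARγ/+_5d. Of 8 adipocyte markers, 5 were called higher over the 5 days in PPARγ/+ cells and none in WT cells, and Lep was at 0 in all libraries. Their summed FPKM ranged from 11.9 to 16.4 in WT_0d, 14.8 to 19.0 in WT_5d, 20.5 to 26.2 in PPARγ/+_0d and 56.6 to 155.0 in PPARγ/+_5d. On the second principal component of all genes replicate 3 of WT_5d (-11.8) stood apart from replicates 1 and 2 (54.4 and 32.1). Without it, 15 members were called lower and 3 higher in WT cells. Fits that left out 1 WT library called 2765 to 3057 of the 18023 genes, both directions together. Hist2h4 kept its call, and those of Hist1h2bc and Hist1h3f were lost.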

How the data were processed

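RNA of 12 libraries was sequenced as pairs from an unstranded kit. Per the methods and labels, the authors trimmed the reads, aligned them with STAR to GRCm38 with Ensembl genes (the submitters' processing notes name mm9), counted fragments per gene with HTSeq and deposited FPKM values. The authors also deposited a log2 table, which holds log2(FPKM + 1) of the same values and was used only to check this. Positions are those of GRCm38 in the GENCODE M21 annotation used here, and promoters those of RefSeq.

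Samples were grouped by their titles. Each comparison was fitted with limma 3.58.1 (R 4.3.3), with a trend in the variance, on log2(FPKM + 0.1) of 18023 genes with at least 0.1 FPKM in at least 3 libraries, and p-values were adjusted after Benjamini and Hochberg over all of them. Fold changes on this scale understate the change of low genes. Each cell type's change over time was fitted on its own 6 libraries, and the interaction and the comparisons of cell types on all 12. The fits were also run on simulated data with known changes, which were given only to genes with a mean of at least 20 fragments. That run does not cover the 34 members with at most 20 fragments in any library. Because FPKM steps are whole fragments, fragments per gene were recovered from a gene length and the number of mapped pairs, with a tolerance of 0.01 for a whole number. This gave 15507708 to 21960607 fragments on genes per library. The annotated exonic length was used for 29 members. For the other 17 it gave no whole numbers, and the smallest length that did was taken. Their fragments are thus the smallest counts that match. The replicates were not duplicates, since at least 21594 genes differed between any pair of libraries.

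The named members are the 12 with the highest mean, those called between days with a mean of at least 1 FPKM in a group, those called in the interaction or between cell types, and 3 on each side of the filter. Members, lists and rules were chosen with earlier results of these data known. Alternatives were other added values, filters, scalings, library weights, a replicate block, a fit of all libraries and leaving out each library, and limma voom on the recovered fragments was added after seeing the data. Protein sequences were not used here.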

Additional observations from a re-analysis of the deposited data

How the results depend on the processing

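Of 614 alternative values for 37 named log2 changes, 513 kept their direction and side of the threshold, 86 kept the direction and lost the call, 2 gained a call and 13 changed sign. Where a result changed, the cause was not tested unless the setting itself leaves fewer genes or libraries. With 1 added to the FPKM, 1 member was called over time in WT cells (1 higher, 0 lower), 0 in PPARγ/+ cells (0 higher, 0 lower) and 0 between cell types on 0d. A filter at 1 FPKM left 9 members in the fit, of which 4 were called in WT cells (1 lower), 5 in PPARγ/+ cells (3 lower) and 0 between cell types on 0d. Weighting the libraries called 1 member higher in PPARγ/+ cells, 5 in the interaction, 3 on 0d and 8 on 5d. In PPARγ/+ cells no filter gave 9 calls (1 higher, 8 lower), as did the adjusted p (9, with 1 higher and 8 lower). On 0d 0 members were called with median-ratio scaling, with the replicate block and with voom. Voom called 22 members in WT cells and 15 in PPARγ/+ cells. All these counts are given without the share of all genes called under the same setting, so they are not set against the background.

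Same-numbered libraries had correlations of -0.0678 to 0.0834 over 18 pairs, and 2 of 12 libraries lay closest to their own number. The main fits therefore used no pairing. Whether same-numbered libraries shared a culture or a preparation cannot be told from these values. With the replicate block 17 members were called in WT cells, 15 in PPARγ/+ cells, 0 in the interaction, 0 on 0d and 0 on 5d, and over all genes the interaction calls went from 137 to 61, against 2070 with library weights.

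Leaving out 1 library gave 16 to 22 calls in WT cells (3 to 5 higher, 12 to 19 lower), 9 to 13 in PPARγ/+ cells (1 to 2 higher, 7 to 12 lower), 0 to 3 on 0d, and 0 to 0 in the interaction and on 5d. Of all 18023 genes these fits called 2765 to 3057 in WT cells, 2535 to 2829 in PPARγ/+ cells and 180 to 491 on 0d. They called 42 to 527 in the interaction and 78 to 796 on 5d. Changes of sign were seen only in members that were not called in that comparison. Hist1h4i in WT cells had 0.16 with library weights, 0.0786 with median-ratio scaling, 0.0471 with quantile normalization and -0.18 to 0.13 without 1 library, and Hist1h4n had 0.0308 with library weights and -0.68 to 0.26. Without 1 library the log2 change ranged from -0.95 to 0.20 for Hist1h2bg and from -0.67 to 0.0371 for Hist1h1d in WT cells, and from -0.0771 to 0.38 for Hist1h2bc and from -0.75 to 0.35 for Hist1h4h in PPARγ/+ cells. Few fragments limit most members, as 34 of 46 held at most 20 in any library.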

Other observations

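The symbols also cover the H2A pseudogene Hist1h2al, which the rule left out and which lies away from the Hist1 cluster (chr13:51202727-51203065). It had 1.55 ± 1.27 FPKM in WT_0d, 4.25 ± 1.13 in WT_5d, 2.86 ± 0.787 in PPARγ/+_0d and 5.33 ± 0.567 in PPARγ/+_5d (mean ± SD, n = 3). Its days did not overlap in either cell type, and its exons overlap Gm44341.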
